A study of Caenorhabditis elegans with 2 samples.

Results

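The mir-51 family is a group of C. elegans microRNA genes whose main products carry the same seed, the stretch of bases 2 to 8 with which a microRNA pairs to its target messages. Members were taken by symbol, as every gene named mir-51 to mir-56 with any letter suffix in the Ensembl annotation of WBcel235. This gave 7 genes: mir-51, mir-52 and mir-53 on chromosome IV, and mir-54, mir-55, mir-55b and mir-56 on chromosome X. They are 7 of 261 annotated microRNA genes and of 46890 genes on the 6 nuclear chromosomes. What was measured is where the nuclear hormone receptor NHR-12, tagged with eGFP, was enriched on the genome by ChIP-seq (chromatin pulled down with an antibody and sequenced), in whole mixed-stage embryos of pooled sex. The embryos were of strain OP318, which carries the insertion wgIs318 in a background with the mutation unc-119(ed3). There was 1 group with 2 biological replicates and no second condition, and both replicates come from this strain. The question was which regions lay near these genes, how strong they were within each list, and whether both replicates held them.

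MicroRNAs are cut from the hairpins of longer primary transcripts, first by Drosha with its partner Pasha and then by Dicer, and one arm of the hairpin is loaded onto an Argonaute protein. The mir-51 family is broadly expressed and acts redundantly. Loss of the whole family is lethal in embryos, with defects that include detachment of the pharynx, and the cadherin gene cdh-3 has been described as a target. The family shares its seed with the vertebrate miR-99 and miR-100 microRNAs. The annotated microRNA genes are the hairpins themselves, of 90 to 100 bp here. The start of a hairpin is therefore not the start of its primary transcript, and distances below are to the hairpin.

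The mature sequences are shown because the shared seed defines the family. They were read from the WBcel235 genome at the positions of the RefSeq annotation, 5′ to 3′, with the seed in capitals:
mir-51: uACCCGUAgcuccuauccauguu
mir-52: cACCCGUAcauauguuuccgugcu
mir-53: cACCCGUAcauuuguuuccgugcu
mir-54: uACCCGUAaucuucauaauccgag
mir-55: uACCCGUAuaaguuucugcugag
mir-56: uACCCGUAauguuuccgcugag

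These 6 were the products with the seed ACCCGUA among 458 annotated mature products. The product lies on the 5p arm of the hairpin in mir-51, mir-52 and mir-53, and on the 3p arm in mir-54, mir-55 and mir-56. The annotated product of mir-55b, a hairpin on the strand opposite to mir-55, has another seed, so mir-55b belongs to the group by its symbol and not by its seed. Between hairpins, identity in pairwise alignments ran from 45.0% to 57.1%, apart from mir-52 and mir-53, which shared 79 of 100 aligned positions.

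The 7 genes form 3 loci. On chromosome IV, mir-51 (chrIV:11026013-11026112, minus strand) and mir-53 (chrIV:11027593-11027691, minus strand) have starts 1579 bp apart. They lie between alh-3, an aldehyde dehydrogenase family gene, and the genes hrg-5 and hrg-4. At 3006317 bp from the mir-53 start, mir-52 (chrIV:14034008-14034107, plus strand) lies 9772 bp from the nearest protein-coding start, Y37A1B.7. It overlaps an ncRNA gene on the opposite strand. On chromosome X, mir-54 (chrX:13144996-13145094), mir-55 (chrX:13144827-13144924) and mir-56 (chrX:13144691-13144787) follow each other on the minus strand within 404 bp. They lie inside the protein-coding gene F09A5.3, which is on the plus strand.

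Every one of the 7 members had a thresholded peak within 3 kb, against 4.33% of the other 254 microRNA genes (11 genes) and 2.00% of all annotated genes. Thresholded peaks are the 249 regions that the authors deposited as the optimal set after comparing the replicates by the irreproducible discovery rate. The members share their peaks, so the 7 genes stand for 3 loci and 5 peaks. Among the 249 best candidates of replicate 2 alone, that is without replicate 1, the count was 3 (mir-51, mir-52 and mir-53). It was also 3 with the better-ranked 50% of the peaks. No share of other genes is given under these settings, so 4.33% and 2.00% are not their background. Counted by locus, with hairpins closer than 10 kb joined, 3 of 3 family loci had a peak, against 7 of 194 other microRNA loci (3.61%). No test was made of these shares, since members of a locus are not independent and the design holds 1 group. The members were also chosen with earlier results of these data known, so the shares are a description only.

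Under weaker criteria the shares lay closer together. A candidate region called on the pooled replicates lay within 3 kb of 7 members, but also of 89.4% of other microRNA genes and 83.3% of all genes. Candidates of both replicates lay within 3 kb of 7 members, against 78.0% of other microRNA genes and 74.4% of all genes. The candidate lists are long, with 28574 pooled regions and 30000 in each replicate, and most of their regions have little signal. Members had 4 to 7 pooled candidates within 3 kb (median 5), against a median of 2 in other microRNA genes and 2 in all genes. The 4 members on chromosome X share the same 5 candidates, so the family median counts a single locus repeatedly. The 36 pairs of a member and a pooled candidate come from 17 regions.

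The largest signal at the family was at mir-51. The peak (chrIV:11025988-11026343) had a signal of 77.5 and ranked 12 of 249, with its summit 54 bp upstream of the hairpin. Signal is the authors' value for each region against a control, in units that no source gives, so its size is not compared between lists. Replicate 1 held a candidate there with a signal of 37.7 (rank 17 of 30000), and replicate 2 one with 40.9 (rank 7 of 30000). Its summit lay 87 bp upstream of the pooled summit in replicate 1 and 14 bp upstream in replicate 2, in the direction of the mir-51 strand. Both replicates thus held a region of high rank with its summit upstream of the hairpin, while the regions themselves extend onto the hairpin.

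The mir-51 summit lies inside another annotated gene, the 89 bp ncRNA gene F36H1.17 (chrIV:11026131-11026219, minus strand), which is separated from the mir-51 hairpin by 18 bp. F36H1.17 is on the same strand as mir-51, and the summit is 53 bp inside it. Its sequence holds a match to the B box, the internal promoter element of tRNA genes (GGTTCGANNC), starting at base 56 of the gene and 2 bp from the summit. This motif was chosen after the data had been seen. It occurred in 20 of 249 summit windows of 201 bp at thresholded peaks (8.03%) and in 0.823% of those at other pooled candidates, with both strands searched. Of the 7 strongest regions at the family, 1 held it. A match describes the sequence and does not show which factor was there.

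The 201 bp around the mir-51 summit are shown because the hairpin, the ncRNA gene and the summit meet there. The window is chrIV:11026066-11026266 of ce11 on the minus strand, and the capitals mark the B box match and then the mature mir-51 product:
mir-51 summit: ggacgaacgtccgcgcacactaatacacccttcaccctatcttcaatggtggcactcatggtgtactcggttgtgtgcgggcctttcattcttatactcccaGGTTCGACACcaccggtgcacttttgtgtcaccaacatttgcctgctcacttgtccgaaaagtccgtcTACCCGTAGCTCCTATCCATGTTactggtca

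At mir-53, a separate region covered the hairpin, with its summit just upstream, but missed the threshold. The pooled candidate (chrIV:11027586-11027941) had a signal of 27.6 and rank 307, with its summit 73 bp upstream of the mir-53 start. The lowest signal among the thresholded peaks was 30.7. Replicate 1 held a candidate there with a signal of 24.2 and rank 117, its summit 1 bp from the pooled one. No replicate 2 candidate overlapped it. The thresholded peak counted for mir-53 within 3 kb is the one at mir-51, whose summit lies 1525 bp downstream of the mir-53 start. With a window of 1 kb, mir-53 had no thresholded peak.

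At mir-52, the strongest peak lay on the hairpin itself. This peak (chrIV:14033838-14034193) had a signal of 50.5 and ranked 57 of 249, with its summit 8 bp inside the hairpin and also inside the antisense ncRNA gene. Replicate 1 had a signal of 31.6 there (rank 52), with a summit 158 bp downstream of the hairpin start. Replicate 2 had a signal of 31.0 (rank 24), with a summit 29 bp upstream of it. The best candidates of the replicates thus agreed on a high rank, with summits on opposite sides of the hairpin start. Replicate 2 also held a weaker candidate overlapping the peak (signal 8.80, rank 3766). Its summit lay 171 bp downstream of the hairpin start, near that of replicate 1.

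A separate peak of mir-52 (chrIV:14032701-14033056) ranked 197 with a signal of 33.3, its summit 1129 bp upstream of the hairpin and inside another ncRNA gene. The replicates differed more there. Replicate 1 had a signal of 13.8 and rank 1041, and replicate 2 a signal of 23.5 and rank 62. No other annotated microRNA gene lay within 3 kb of either peak.

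The mir-52 windows are shown because the summit sits on the hairpin in one and near motif matches in the other. Both are from ce11 on the plus strand. In the window on the hairpin, chrIV:14033916-14034116, capitals mark the mature product. In the upstream window, chrIV:14032779-14032979, capitals mark matches to GGGCGG, GAGAGAGA and CTGCGTCT on either strand, in that order, with overlapping GAGAGAGA matches at the end:
mir-52 summit: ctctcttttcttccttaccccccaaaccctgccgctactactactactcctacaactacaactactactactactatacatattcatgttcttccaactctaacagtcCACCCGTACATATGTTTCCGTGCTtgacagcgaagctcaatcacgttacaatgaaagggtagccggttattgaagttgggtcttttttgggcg
mir-52 upstream summit: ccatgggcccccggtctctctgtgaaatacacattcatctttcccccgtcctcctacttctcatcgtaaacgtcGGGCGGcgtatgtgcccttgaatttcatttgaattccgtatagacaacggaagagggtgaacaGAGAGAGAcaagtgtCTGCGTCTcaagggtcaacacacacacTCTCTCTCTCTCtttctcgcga

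On chromosome X, the summits of both peaks lay downstream of mir-56, the last hairpin, and the weaker peak itself covers that hairpin. The stronger peak (chrX:13144235-13144590) had a signal of 38.6 and ranked 130 of 249. Its summit lay 278 bp beyond the 3′ end of mir-56 and 681 bp downstream of the mir-54 start. The other (chrX:13144448-13144803) had a signal of 31.7 and ranked 230, with its summit 65 bp beyond the end of mir-56. These peaks overlap by 143 bp with summits 213 bp apart, and both summits lie in an intron of F09A5.3, 2812 and 3025 bp from its start. In each replicate a single candidate overlapped both peaks. Replicate 1 had a signal of 35.6 and rank 26, with a summit between the pooled summits. Replicate 2 had a signal of 13.8 and rank 457, with a summit 7 bp from that of the stronger peak. The rank was therefore high in replicate 1 and outside the best 249 in replicate 2.

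Upstream of mir-54, a pooled candidate (chrX:13145382-13145737) had a signal of 27.6 and rank 310, just below the threshold, as at mir-53. Its summit lay 466 bp upstream of mir-54, the first hairpin of the cluster, in an intron of F09A5.3. The gene start nearest to this summit was that of F09A5.11, 289 bp away. The best candidate overlapping the pooled one had a signal of 16.7 in replicate 1 (rank 412) and 10.4 in replicate 2 (rank 1747). Those candidates do not overlap each other, with summits 239 and 674 bp upstream of mir-54. Closer to the pooled summit, replicate 1 held a candidate of rank 538 (signal 15.7, summit 466 bp upstream). Replicate 2 held one of rank 3707 there (signal 8.83, summit 456 bp upstream). Both replicates held a region there, at ranks outside the best 249. Past the cluster, 1474 bp downstream of the mir-56 start, a pooled candidate ranked 17925. Replicate 2 held an overlapping candidate of rank 707 with a signal of 12.7, and replicate 1 held none.

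**Figure D1:**
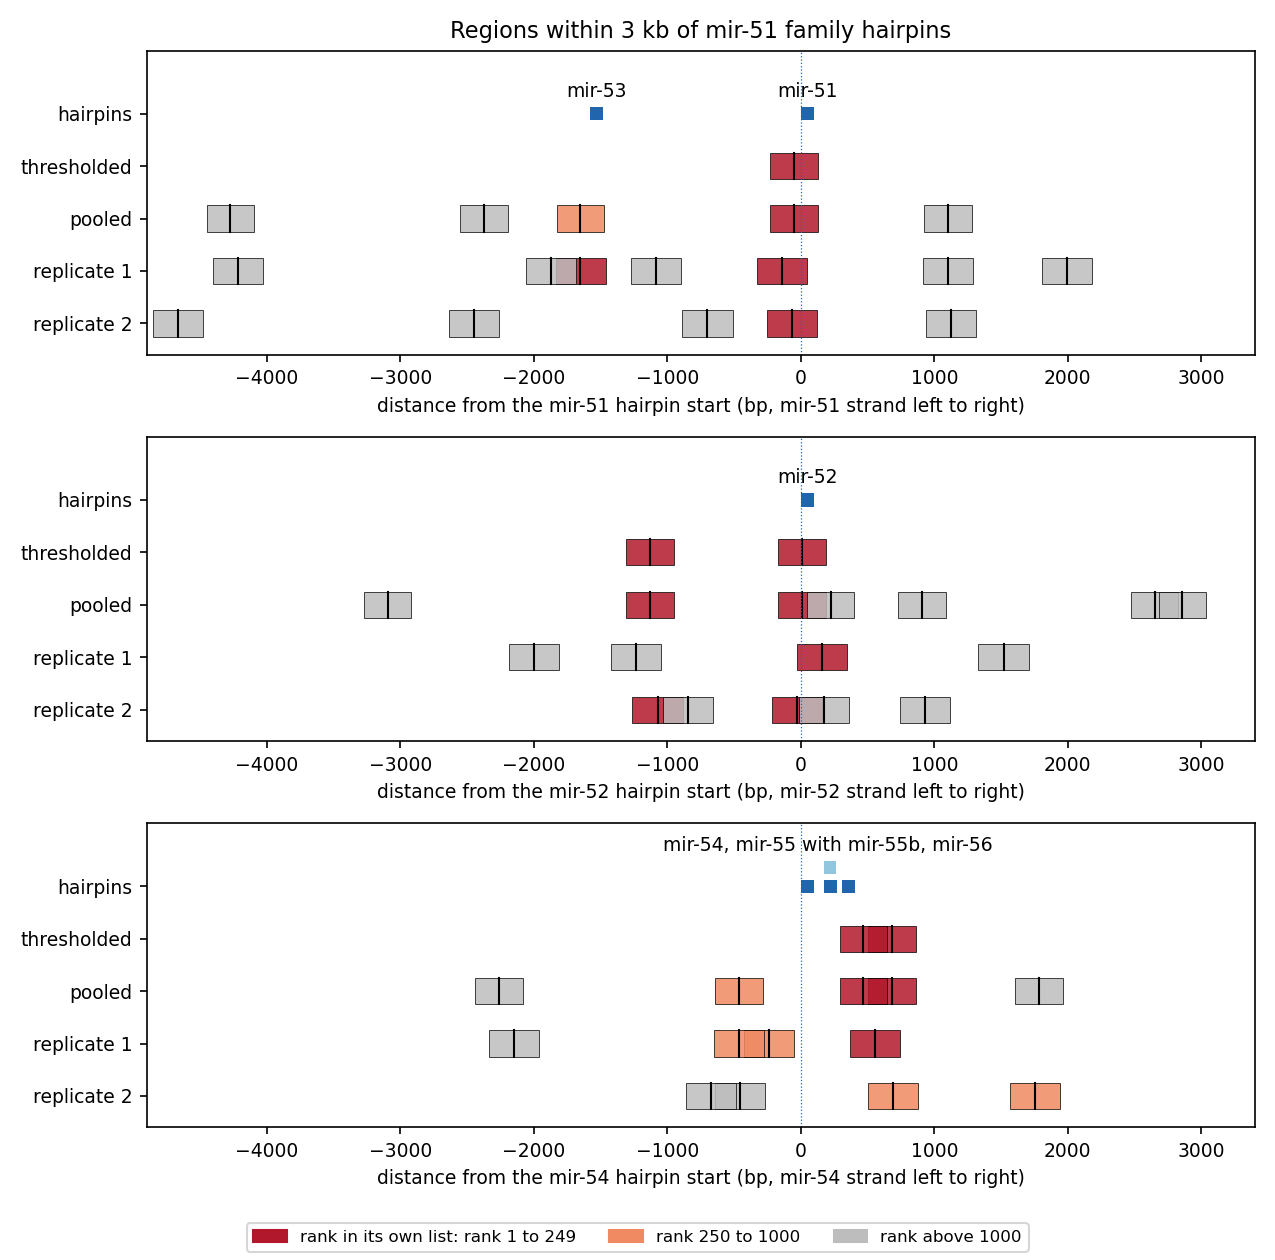
Regions within 3 kb of the family hairpins at the 3 loci, by distance in bp from the start of mir-51, mir-52 or mir-54 along its strand. Boxes are regions of the thresholded, pooled and replicate lists, coloured by rank in their own list, with the summit as a black line, and blue boxes are hairpins (pale for mir-55b, on the other strand). Summits of thresholded peaks lie 54 bp upstream of mir-51, 8 bp inside mir-52, 1129 bp upstream of mir-52, and 65 and 278 bp past the end of mir-56.

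Across the 3 loci, the order by pooled rank was mir-51 (12), mir-52 (57) and the chromosome X cluster (130). The order was not the same in the replicates. In replicate 1 the best ranks were 17 at mir-51, 26 at the chromosome X cluster and 52 at mir-52. In replicate 2 they were 7 at mir-51, 24 at mir-52 and 457 at the cluster. The mir-51 peak thus ranked best of the 3 in both replicates, while mir-52 and the cluster changed places. Of the 17 pooled candidates within 3 kb of a member, 8 had an overlapping candidate in both replicates and 3 in neither. The same shares over all pooled candidates were not computed, so these counts only describe the loci. Among the 8, the candidates of pooled rank 130 and 230 share their replicate candidates, and so do those of rank 57 and 5414. A −log10 q of at least 2 was reached by 5 of the 17, which were the 5 peaks, against 261 of all 28574 pooled candidates.

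**Figure D2:**
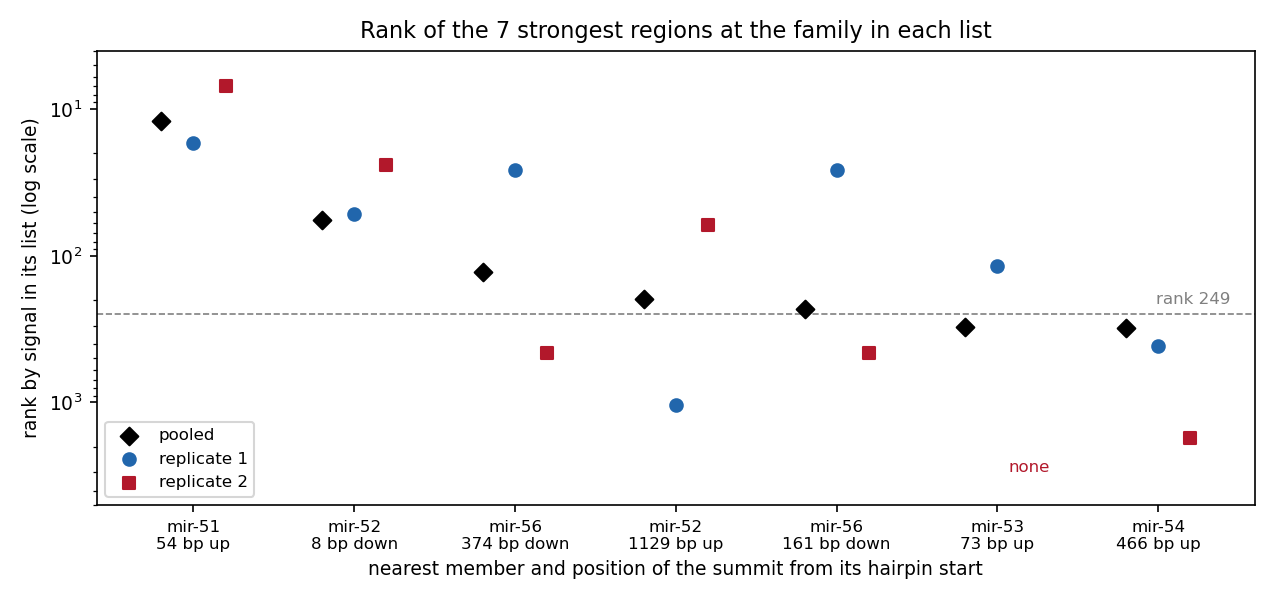
Rank by signal (log scale, best at the top) of the 7 strongest pooled regions at the family and of the best overlapping candidate in each replicate. The candidates drawn for the replicates need not overlap each other, and upstream of mir-54 they do not. Columns give the nearest member and the summit's position from its hairpin start. The mir-51 region ranked 12, 17 and 7, while the region at mir-53 had none in replicate 2.

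Regions among the 249 best of both replicates lay within 3 kb of 3 members, mir-51, mir-53 and mir-52, against 4.33% of other microRNA genes and 0.951% of all genes. The region need not be the same in both replicates. Genes of a locus are counted separately, as are mir-51 and mir-53, and mir-35 to mir-41 of a single cluster among the 11 other microRNA genes. The 4 members on chromosome X did not meet this criterion. The window of 1000 bp before and 200 bp after the hairpin start held a thresholded summit at 4 members, mir-51, mir-52, mir-55b and mir-56, against 1.18% of other microRNA genes (3 genes) and 0.795% of all genes. For mir-56 this is the summit 161 bp downstream of its start. For mir-55b, on the opposite strand, the window held both chromosome X summits, 204 and 417 bp upstream of its start. The annotation lists hairpins as genes, so a start window here describes the hairpin and not a known promoter.

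Set among all microRNA genes, the family's best pooled ranks within 3 kb ran from 12 to 130 (median 130). In the other 227 microRNA genes with a pooled candidate there, the best rank was 51 and the median 5606, and 27 had none. The median over all genes with a candidate was 8430. Better ranks than 130 were held by 4 of the other microRNA genes. In replicate 1 the members ranked 17 to 52, and 1 other microRNA gene ranked better than 52. In replicate 2 the members ranked 7 to 457, and 33 other microRNA genes ranked better than 457. The 4 chromosome X members share 1 region, and so do mir-51 and mir-53, so these values stand for 3 regions.

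**Figure D3:**
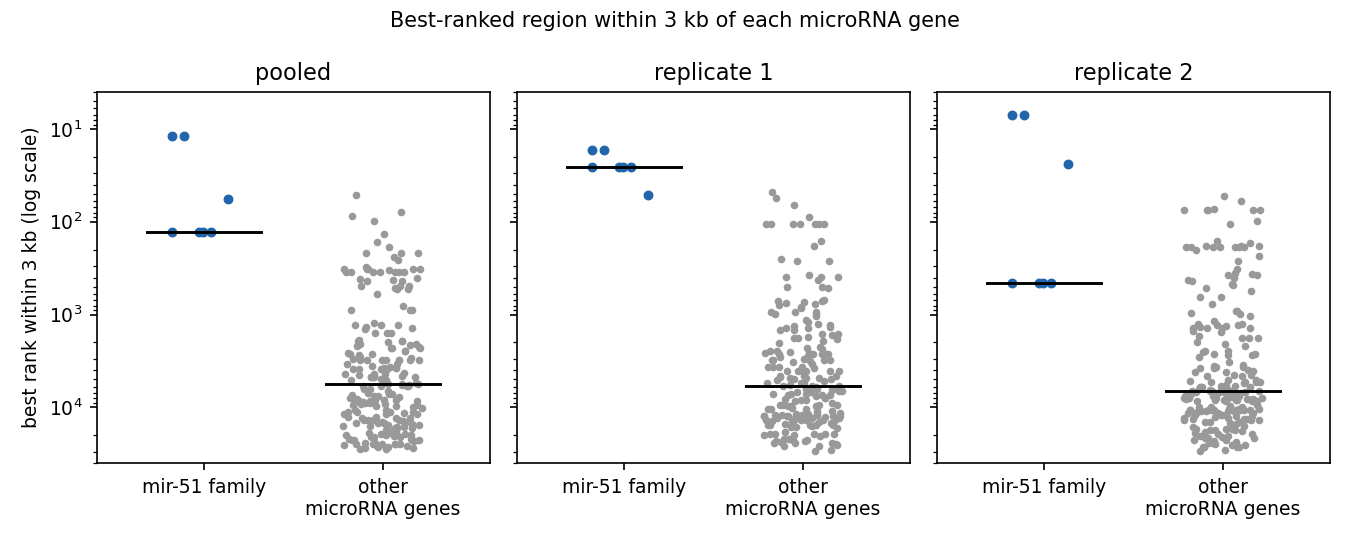
Best rank (log scale, best at the top) of any region within 3 kb of each microRNA gene in the pooled and both replicate lists, for the 7 mir-51 family genes and the other microRNA genes. Points are genes and bars are medians, and genes without a region are not drawn. The family lies at 12 to 130 in the pooled list, against a median of 5606 in the other genes.

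Of the 249 thresholded peaks, 14 lay within 3 kb of a microRNA gene, 5 of them at the family and 9 at other microRNA genes alone. The mir-51 peak had the largest signal of the 14. The other microRNA genes whose best pooled rank was nearest to that of mir-51 were mir-4813 (rank 51, a difference of 39), mir-1824 (79), mir-90 (87), mir-791 (99) and mir-58a (135), a bantam-related microRNA. Likeness here is the difference in pooled rank, over 2 pooled replicates. Their summits lay 2905 bp upstream of mir-4813, 409 bp downstream of the mir-1824 start, 289 bp upstream of mir-90, 2962 bp downstream of the mir-791 start and 177 bp upstream of mir-58a. In replicates 1 and 2 the best candidates overlapping those regions ranked 56 and 204 at mir-4813, 160 and 60 at mir-1824, and 48 and 6191 at mir-90, where replicate 2 also held a candidate of rank 436 elsewhere within 3 kb. They ranked 66 and 73 at mir-791, and 725 and 53 at mir-58a. The replicate ranks of mir-51, 17 and 7, were both better than any of these. The mir-35 to mir-42 genes, the other microRNA family known to be essential in embryos, had a thresholded peak within 3 kb in 1 of 8 cases, mir-42. The other 7 share a best pooled candidate of rank 346. The best rank within 3 kb of them was 105 in replicate 1 and 189 in replicate 2, which need not be regions that overlap the pooled one.

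The element CTCCGCCC, described upstream of nematode microRNA genes, occurred within 1000 bp upstream of 4 of 7 members, against 12.2% of other microRNA genes (31 of 254) and 3.91% of 46881 genes with a full window. The 4 members are mir-52 and, through a single site, mir-54, mir-55 and mir-56. The site lies 458 bp upstream of mir-52 and 308 bp upstream of mir-54. Both strands were searched, and each CTCCGCCC site also contains a GGGCGG match on the other strand. GGGCGG occurred upstream of 4 of 7 members, against 34.6% of other microRNA genes and 14.3% of all genes.

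The sites are shown with their surroundings because one of them lies inside a candidate region and the other does not. Both are from ce11, in the direction of the hairpin, with CTCCGCCC in capitals, at chrIV:14033520-14033587 on the plus strand and chrX:13145365-13145432 on the minus strand:
mir-52 element: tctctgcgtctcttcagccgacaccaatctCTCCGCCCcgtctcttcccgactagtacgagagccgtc
mir-54 element: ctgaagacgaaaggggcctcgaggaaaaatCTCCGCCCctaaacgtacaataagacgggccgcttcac

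The site upstream of mir-54 lay inside the pooled candidate of rank 310, 158 bp from its summit, and inside candidates of both replicates. The nearest of those summits was 62 bp away, in replicate 1, at a candidate of rank 412. The site upstream of mir-52 lay in no region of the 4 lists. It was 281 bp from the peak on the hairpin and 201 bp from the nearest candidate of replicate 2, which ranked 20526. Among other microRNA genes, 2 of the 31 with the element had a thresholded peak within 3 kb (mir-2 and mir-90), and 9 of the 223 without it. These counts are a description and were not tested.

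Few motif matches lay in the 7 summit windows at the family, a number of windows too small to set against the shares below. CTCCGCCC was in none of the 7. It was in 6.83% of windows at thresholded peaks and 0.985% at other candidates. GGGCGG occurred in the window of the upstream mir-52 peak, 26 bp from its summit, and in 18.5% of windows at thresholded peaks against 4.29% at other candidates. CTGCGTCT occurred in the window of the upstream mir-52 peak, 52 bp from its summit, and in 12.9% of windows at thresholded peaks against 2.30% at other candidates. GAGAGAGA occurred in that window and in that of the mir-53 region (overlapping matches 46 to 54 bp from the summit), against 11.2% and 2.81%. The hexamer AGGTCA, which many nuclear receptors bind, was in none of the 7 summit windows at the family. It was in 5.22% of windows at thresholded peaks and 5.71% at other candidates. The related hexamer AAGTCA was also in none of the 7, against 4.82% and 9.12%. The E box CACGTG was in none of them either, against 5.22% and 4.32%. The GATA-type sequence TGATAA was likewise absent from the 7, against 6.43% and 16.8%. Within 1000 bp upstream of the hairpins, the E box occurred at 4 of 7 members, mir-53 and, through a single site, mir-54, mir-55 and mir-56, against 17.7% of other microRNA genes and 12.7% of all genes. In the same upstream windows, AGGTCA occurred at 2 members, against 21.7% of other microRNA genes and 21.1% of all genes. The GATA-type sequence occurred at 2, against 62.6% and 65.7%. GAGAGAGA occurred at 2, against 15.7% and 6.88%. AAGTCA occurred at 1, against 38.2% and 39.4%, and CTGCGTCT at 1, against 6.30% and 5.75%. Absence of these letters from a window of 201 bp says nothing about the factor itself.

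The GC content of the windows at the 5 peaks was 51.7% at mir-51, 44.3% at the mir-52 hairpin, 50.7% upstream of mir-52, and 58.7% and 52.7% on chromosome X. The median was 46.8% over all thresholded peaks and 37.8% over the other candidates. The sub-threshold regions at mir-53 and mir-54 had 43.8% and 42.3%. GC content was thus higher at the thresholded peaks than at other candidates, and its part in the result was not tested. In each of the 7 regions, all 321 stretches of 36 bases occurred once in the 6 nuclear chromosomes, although the read length is not given in the sources used here.

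A list of 20 genes held those that make, use or degrade microRNAs or act with them on messages, and the target gene cdh-3, and 19 of them were matched by symbol. Besides the genes described next it held ain-2, cgh-1, ntl-1 (not matched), ccf-1, ccr-4, xrn-1, xrn-2, dcs-1, pab-1, tsn-1 and ebax-1. The list was chosen with earlier results of these data known. A thresholded peak lay within 3 kb of 3 of the 19, against 2.71% of protein-coding genes, a difference that was not tested. They were ain-1, a GW182-type partner of Argonaute (signal 53.8, rank 46, summit 1008 bp upstream), nhl-2, a TRIM-NHL cofactor of the microRNA complex (47.1, rank 75, 849 bp upstream), and vig-1, a component of the RNA-induced silencing complex (32.2, rank 215, 417 bp upstream). In replicates 1 and 2 the best ranks within 3 kb were 67 and 36 at ain-1, 166 and 51 at nhl-2, and 126 and 1315 at vig-1. The Drosha gene drsh-1 had a best pooled rank of 325, its partner pash-1 one of 8410, the Dicer gene dcr-1 one of 1690, and the Argonaute genes alg-1 and alg-2 ranks of 8423 and 843. The target gene cdh-3 had a best pooled rank of 2014. None of these 6 genes had a thresholded peak within 3 kb.

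The files give no depth per library, so the precision of a signal value is unknown. The samples were whole embryos, and enrichment in few cells cannot be told apart from weak enrichment in many. No region of the 4 lists lay within 3 kb of nhr-12 itself, so the tagged gene's own locus gives no check of the labels. The labelled control was not analysed here.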

How the data were processed

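ChIP-seq region lists were analysed for 2 biological replicates of 1 group, with fragments of 150 to 350 bp per the labels. Per the authors' notes deposited beside each library, candidate regions were called on each replicate and on both together against a control, and the optimal set came from comparing the replicates by the irreproducible discovery rate, on ce11. The aligner, the peak caller and their versions are not stated in those notes. The signal of each region was deposited by the authors on a scale not stated, and the deposited −log10 q values reach a cap that many regions share. The lists on ce10 were not used.

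Regions were ranked by signal within each of 4 lists, with ties at the best rank, and assigned to a gene when they came within 3 kb of it. Gene positions came from Ensembl release 115 of WBcel235, the same assembly as ce11, and sequences and mature microRNAs from RefSeq. Distances from a summit to a gene run to its start, or to the end of the hairpin where the text says so. Python 3.11.15, numpy 2.4.6, pandas 2.3.3, biopython 1.88 and matplotlib 3.10.9 were used, and the region and motif searches recovered all 200 planted items on simulated data. The other microRNA genes named were the 5 nearest to mir-51 in pooled rank. The members and lists were chosen with earlier results of these data known. No test between groups was possible with 1 group. Alternatives were windows of 1 and 5 kb, ranking by −log10 q, a −log10 q of at least 2, distances to summits, overlaps between replicate candidates, the better-ranked 50% of the peaks and leaving out each replicate.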

Additional observations from a re-analysis of the deposited data

How the results depend on the processing

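The count of members with a thresholded peak within 3 kb was 7. It was 3 (mir-51, mir-52 and mir-53) when the better-ranked 50% of the peaks by signal were kept. When each replicate was left out in turn, by taking the 249 best candidates of the other, it ranged from 3 to 7. The 3 came without replicate 1, where the chromosome X cluster had no region among the 249 best. Ranked by −log10 q, the best regions of all 7 members took rank 1, since 203 pooled regions share the cap, so this ranking gives no order of the 3 loci. With a window of 1 kb, the best pooled rank of mir-53 was 307 in place of 12. The counts of members with a pooled candidate or with candidates of both replicates were 7 under each alternative run. No share of other genes is given under these alternatives, so the counts describe the members only. No paired analysis was possible because there is 1 group. The depth of the libraries is unknown, so no interval is given for a signal.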
